A study of Rattus norvegicus with 6 samples.

Results

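The EcoRI fragments longer than 12.8 kb (12800 bp) on the rat autosomes other than chromosome 13 were examined in a 4C-seq experiment. They were chosen by length alone, as end minus start in the deposited tables, and numbered 25325 of 712487 fragments on these 19 chromosomes. The tables listed 759990 fragments outside chromosome 13 when chromosome X is included. They are called long fragments here.

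4C-seq finds the DNA that lies near a chosen viewpoint in fixed nuclei, and here the viewpoint was a gene promoter on chromosome 13. Libraries came from rat cardiac endothelial cells at passage 2, with cells of males and females pooled, fixed in 2% formaldehyde for 10 min and cut with EcoRI. Ages are not given in the labels. There were 3 libraries of SS rats (SS/JrHsdMcwi, the Dahl salt-sensitive strain) and 3 of SS13BN rats (SS-13BN/Mcwi, in which chromosome 13 of the BN rat replaces that of SS). All long fragments therefore lie on chromosomes of SS origin in both groups, on other chromosomes than the viewpoint. Whether the libraries of each strain stem from different animals or cultures is not in the labels, so p-values reflect how far these libraries differ among themselves, and that spread may be technical. No expression was measured, so the endothelial identity could not be checked against markers.

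A restriction enzyme cuts wherever its site occurs, and EcoRI recognises GAATTC. Where the site is rare the fragment is long, and that fragment has the same number of ends that can be ligated as a short one but more chromatin that can be cross-linked. In 4C-seq the reads start at fragment ends. Fragment length is therefore a known technical feature of such maps, and contacts with other chromosomes are usually read from many fragments together in a running window. Which genes lie in the long fragments was not analysed here.

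Each table gave a z-score per fragment, and from it each fragment was found to be captured or not. The z-score compares the number of captured fragments in a window of 501 fragments with the captured share of that chromosome. Captured was taken to mean at least 1 read. The tables give no read numbers on these chromosomes, so sequencing depth is unknown, and the number of captured fragments is the only measure of depth. Between 63395 (SS13BN 3) and 126159 (SS13BN 2) of the 712487 fragments were captured. In SS 3 and SS13BN 3 every score on chromosome 13, which holds the viewpoint, was 0. These 2 libraries also stood apart from the other 4 in relative capture, so the main values are given with and without them.

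Long fragments were few but covered much of the genome. They made up 3.55% of the fragments and 22.5% of the length, 592 Mb of 2629 Mb. Their median length was 15.97 kb, with quartiles of 14.1 and 19.3 kb, against 2.08 kb for the other fragments. Lengths of at least 20 kb were found for 5530 (21.8%), of at least 50 kb for 211 and of at least 100 kb for 71.

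A small set of rows held a large part of this length. There were 12 rows of 1 Mb or more, 1 on each of 12 chromosomes, with 134 Mb in all. The longest was chr4:67977592-133127611, at 65.15 Mb. It was followed by chr2:21028392-40627073 (19.6 Mb), chr19:11891866-23208470 (11.3 Mb), chr6:9894464-20142779 (10.2 Mb) and chr3:2993038-8530793 (5.54 Mb). The next length below 1 Mb was 303.9 kb, and the mean over all rows was 3.69 kb. Intervals in the tables are contiguous, so such a row marks a stretch in which no cut is listed. Whether it is a true fragment, a gap in the assembly or a stretch left out of the fragment list was not tested. Without these 12 rows, long fragments covered 458 Mb, or 18.4% of the length.

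Long fragments lay closer together than their share of fragments gives. Of the successive pairs, 1281 (5.06%) were directly adjacent, which is 1.42 times the 3.55% share of long fragments. The median gap was 16 fragments or 49.6 kb, 38.5% of gaps were within 10 fragments, and the widest held 1044 fragments. With at most 1 fragment between neighbours, 4599 long fragments (18.2%) lay in 2146 runs, and 37 of these runs had 4 or more members. The longest run had 6 members of 14.0 to 24.4 kb at chr17:64510115-64616438. Just 1 of these 6 was captured, in 1 library, and the mean z-score there was below 0 in all 6 libraries, from -3.48 (SS 1) to -1.06 (SS13BN 3). The widest stretch in kb without a long fragment was chr4:41097569-42171606, with 1074 kb in 370 fragments.

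Members of runs lay in windows with more capture than members that stood alone, but were themselves captured about as often. Their mean z-score was 1.13 ± 0.21 (SD, n = 6) against 0.49 ± 0.09, and it was higher in each library. The captured share was 15.1% ± 3.16 (SD, n = 6) in runs and 14.8% ± 3.18 alone, and this difference was not tested. The captured share was lower in runs in SS 3, at 16.4% against 16.5%, and higher in the other 5 libraries.

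The density of long fragments differed between regions. They made up from 2.97% of the fragments of chromosome 2 to 5.87% of those of chromosome 12. In successive blocks of 501 fragments the number of long ones was 17.8 ± 8.45 (SD over 1413 blocks) and ranged from 0 to 78. Blocks with more long fragments had more capture of the other fragments too. With the blocks put in 4 sets by their number of long fragments (0 to 12, 13 to 16, 17 to 22 and 23 to 78), the captured share of the other fragments was 9.93%, 11.0%, 12.2% and 14.6%, and that of the long ones 11.9%, 12.7%, 13.9% and 17.6%. Across blocks the Spearman correlation of the number of long fragments with the captured share of the others was 0.47, given as a description, since neighbouring blocks share chromosome and libraries.

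A long fragment was captured more often than another fragment in every library. In SS 1, SS 2 and SS 3, 3860 (15.2%), 3063 (12.1%) and 4177 (16.5%) long fragments were captured. In SS13BN 1, SS13BN 2 and SS13BN 3 the numbers were 3244 (12.8%), 5099 (20.1%) and 3053 (12.1%). The 95% Wilson intervals, which cover counting error only, reached from 14.8% to 15.7% in SS 1 and from 19.6% to 20.6% in SS13BN 2. The other fragments were captured at 12.5%, 10.1% and 11.9% in the SS libraries and at 10.0%, 17.6% and 8.78% in the SS13BN libraries. The library with the most captures, SS13BN 2, was highest for both kinds of fragment.

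The relative capture is the captured share of long fragments divided by that of all others. It was 1.22, 1.20 and 1.38 in SS 1, SS 2 and SS 3, and 1.28, 1.14 and 1.37 in SS13BN 1, SS13BN 2 and SS13BN 3. The highest values were those of SS 3 and SS13BN 3, the libraries with chromosome 13 at 0. The mean log2 ratio was 0.34 ± 0.11 (SD, n = 6), above 0 in 6 of 6 libraries (exact two-sided sign-flip permutation test, p = 0.03125, the smallest that 6 libraries allow; 0.0469 after Benjamini-Hochberg adjustment over 6 tests). The replicate numbers were taken to pair the libraries, and with the 2 libraries of a number averaged, a replicate block added after the data were seen, the value was the same over 3 sets but the exact permutation p was 0.25, the smallest that 3 sets allow, so the call was lost. With a bound of 16 kb it was 0.172 (exact permutation p = 0.0625), and with one of 20 kb it was -0.125 (p = 0.188 in the same exact test). Without SS 3 and SS13BN 3 it was 0.276 and above 0 in the other 4, where the exact permutation test cannot go under p = 0.125. Per Mb of sequence, and leaving out the 12 rows of 1 Mb and over, long fragments gave 0.187 to 0.227 times as many captures as the others.

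The excess was smaller in each library when long fragments were compared with their own surroundings, and the reason for this was not tested. The comparison was with the captured share of all fragments in the window around each long one, long neighbours included and itself left out. This ratio was 1.12, 1.08 and 1.27 in SS 1, SS 2 and SS 3 and 1.15, 1.05 and 1.26 in the SS13BN libraries in the same order. This local log2 ratio was 0.21 ± 0.11 (SD, n = 6), above 0 in 6 of 6 libraries (exact permutation p = 0.03125, adjusted 0.0469; p = 0.25 over 3 sets with the replicate block). The call was lost with a bound of 16 kb, where the value was 0.0401 (exact permutation p = 0.531), and it turned over with one of 20 kb, at -0.244 (exact permutation p = 0.0312). The local value was 0.136 without SS 3 and SS13BN 3, and 0.216 over the 6 libraries with only neighbours that are not long.

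The direction depended on the lengths compared. Against fragments of 6 to 12.8 kb, long fragments were captured less often in each library, at ratios of 0.841, 0.837 and 0.858 in the SS libraries and 0.880, 0.805 and 0.858 in the SS13BN libraries. The mean ratio was 0.847 ± 0.025 (SD, n = 6), with an exact permutation p of 0.03125 that was not among the adjusted tests and was 0.25 with the replicate block. The excess was thus measured against a set whose median length was 2.08 kb, and it turned over against fragments closer in length.

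**Figure D1:**
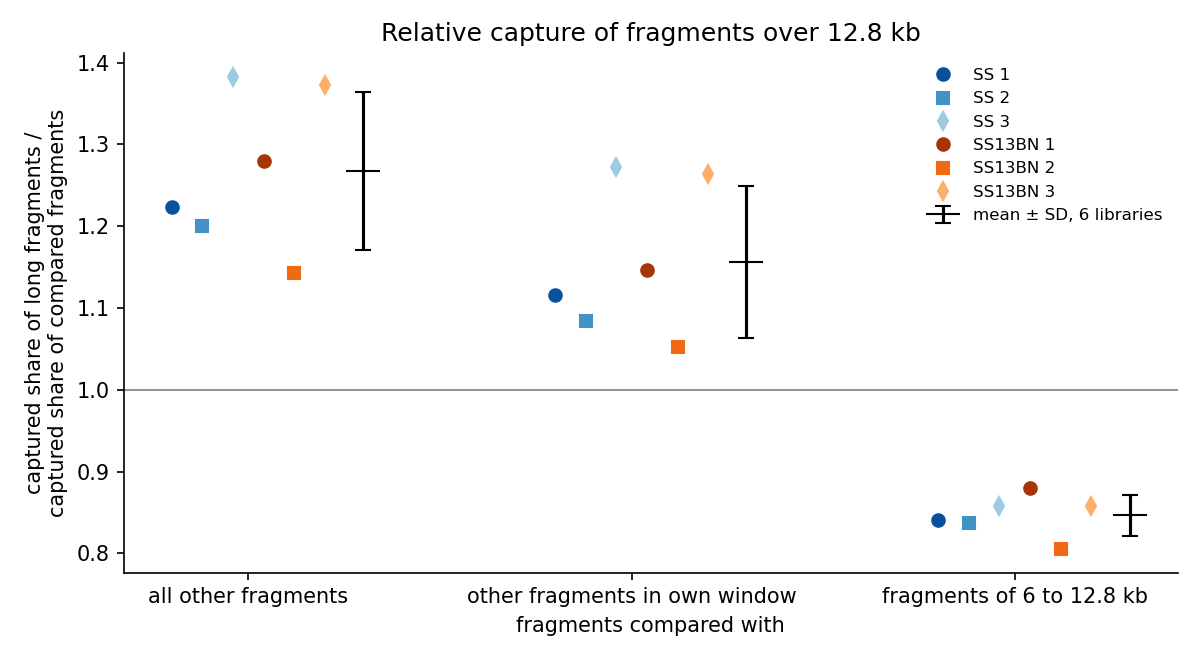
Captured share of long fragments divided by that of the fragments compared with (y axis, a ratio). These were all other fragments, the rest of the window around each long one (long neighbours included), and fragments of 6 to 12.8 kb. Each point is a library and the black bars are the mean and SD of 6 libraries; all points lie above 1 for the first and second set and below 1 for fragments of 6 to 12.8 kb.

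Capture was highest in the class of 6.4 to 12.8 kb, just under the length bound, and fell from there on. In that class 17.7% ± 4.20 (SD, n = 6) of the fragments were captured. Among long fragments the mean share was 16.4% at 12.8 to 16 kb (12735 fragments), 15.2% at 16 to 20 kb (7062) and 12.7% at 20 to 25 kb (3292). It was 9.71% at 25 to 30 kb (1200), 7.99% at 30 to 40 kb (674) and 4.97% at 40 to 50 kb (151). Relative to the captured share of all fragments, it passed from 1.08 ± 0.13 (SD, n = 6) at 20 to 25 kb to 0.833 ± 0.10 at 25 to 30 kb. Each library fell in every step from 6.4 to 50 kb, as the plot of capture by length shows.

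The fall within the long fragments was tested at 20 kb. The captured share of those of 20 kb and over was 0.681, 0.670 and 0.688 times that of the shorter ones in SS 1, SS 2 and SS 3, and 0.718, 0.611 and 0.737 times in the SS13BN libraries. The mean log2 ratio was -0.55 ± 0.09 (SD, n = 6), below 0 in 6 of 6 libraries (exact permutation p = 0.03125, adjusted 0.0469; p = 0.25 with the replicate block).

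Above 50 kb capture all but ended. Of 140 fragments of 50 to 100 kb, 1 was captured, and it was captured in all 6 libraries. This was chr7:2772869-2822889, at 50.02 kb the shortest of that class, with z-scores from -1.98 to 0.51. None of 59 fragments of 100 kb to 1 Mb was captured in any library, which allows a share of up to 5.08% per library at a count of 0. None of the 12 rows over 1 Mb was captured either, which allows up to 25%, so at that number their capture cannot be set apart from that of other long fragments. After chr7:2772869-2822889, the longest fragments captured in all 6 libraries were chr7:11951735-11993444 (41.7 kb), chr10:15025105-15065718 (40.6 kb), chr20:14731504-14771956 (40.5 kb) and chr18:55217137-55256993 (39.9 kb). These fragments of 50 kb and over and of 1 Mb and over, and the longest shared ones, were picked out after their values were seen.

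The surroundings of long fragments followed another course with length than their own capture. The mean z-score was 0.40 at 6.4 to 12.8 kb, 0.56 at 12.8 to 16 kb, 0.73 at 16 to 20 kb, 0.68 at 20 to 25 kb, 0.66 at 25 to 30 kb and 0.55 at 30 to 40 kb, so it was higher at 30 to 40 kb than at 6.4 to 12.8 kb, where more fragments were captured. It was -0.23 at 40 to 50 kb, -1.16 at 50 to 100 kb and -0.96 at 100 kb to 1 Mb. For the 12 rows of 1 Mb and over it was 0.81.

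**Figure D2:**
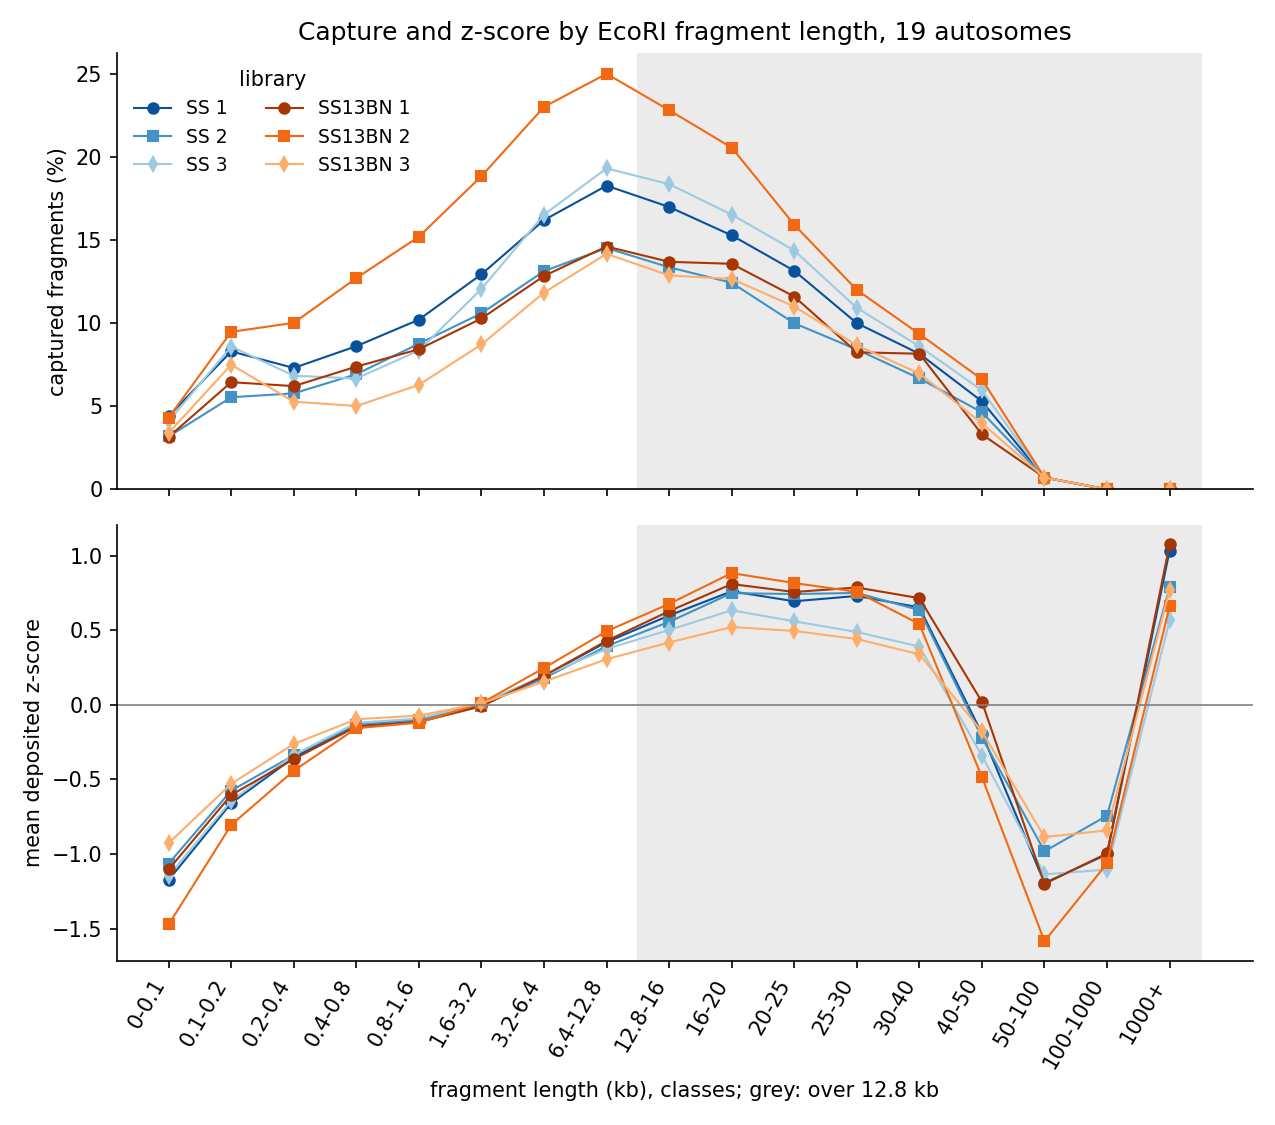
Captured fragments (top, %) and mean deposited z-score (bottom) by class of fragment length in kb, with 1 line per library and long fragments on grey. Captured shares peak at 6.4 to 12.8 kb in the 6 libraries and reach 0 above 100 kb, while the z-score of long fragments stays above 0 up to 40 kb; the last class holds 12 rows.

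Fragments just above the length bound were captured slightly less often than those just below it in every library but SS13BN 1. In the 0.8 kb above the bound, 4178 fragments were captured at 16.6% ± 3.71 (SD, n = 6), and in the 0.8 kb below it 5004 were captured at 17.0% ± 3.98. Within a library the shares above and below were 22.9% and 24.0% in SS13BN 2 and 14.1% and 13.9% in SS13BN 1. The difference was not tested. Of the nearest fragments, 4 were 1 bp over the bound. The first 3 in table order, chr10:14654238-14667039, chr14:75583019-75595820 and chr2:208438647-208451448, were captured in no library. At exactly the bound, chr2:60017968-60030768 was captured in 5 libraries, all but SS 2. Of 10 fragments 1 bp below it, chr1:269600169-269612968 and chr10:54092720-54105519, first in table order, were captured in none.

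The same long fragments were captured again in library after library. None of the 6 libraries captured 17782 long fragments (70.2%), against 62.3% of the others, yet all 6 captured 974 (3.85%), against 1.45% of the others. Of the long fragments captured at all, 23.3% were found in 1 library only and 21.5% in 5 or 6. Among other fragments these shares were 55.3% and 6.86%, and among fragments of 6 to 12.8 kb they were 39.3% and 12.3%. Long fragments were thus less often captured at least once, and more often shared when they were.

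Within each library, captures that no other library shared were fewer among long fragments. They made up 8.99%, 5.65% and 7.45% of the captured long fragments in SS 1, SS 2 and SS 3, and 6.94%, 10.7% and 5.11% in SS13BN 1, SS13BN 2 and SS13BN 3. Among captured other fragments they made up 24.1% (SS13BN 3) to 35.3% (SS13BN 2), so the groups did not overlap. The means were 7.48% ± 2.10 (SD, n = 6) and 28.6% ± 4.34, and the difference was -21.1 points ± 2.39 (SD, n = 6), below 0 in 6 of 6 libraries (exact permutation p = 0.03125, 0.0438 after adjustment over 7 tests; p = 0.25 with the replicate block). This comparison was added after the data were seen. Whether a capture is shared depends on the states of the other libraries, so the 6 values are not independent. The permutation test treats them as if they were, so its p-values are given as a description. Against fragments of 6 to 12.8 kb, where the mean was 16.2% ± 3.15, the difference was -8.68 points.

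Sharing rose with length through every class of long fragments up to 50 kb. The share of captured fragments found in 1 library only was 38.5% at 6.4 to 12.8 kb, 26.7% at 12.8 to 16 kb, 21.1% at 16 to 20 kb, 14.1% at 20 to 25 kb, 9.24% at 25 to 30 kb and 8.0% at 30 to 40 kb. At 40 to 50 kb it was 0 of 10 captured fragments. The share found in 5 or 6 libraries was 12.7% at 6.4 to 12.8 kb and 17.6%, 24.6%, 29.8%, 37.0%, 50.7% and 60% in the 6 classes from 12.8 to 50 kb. So as fragments grew longer and fewer of them were captured, those few were captured in more of the libraries.

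**Figure D3:**
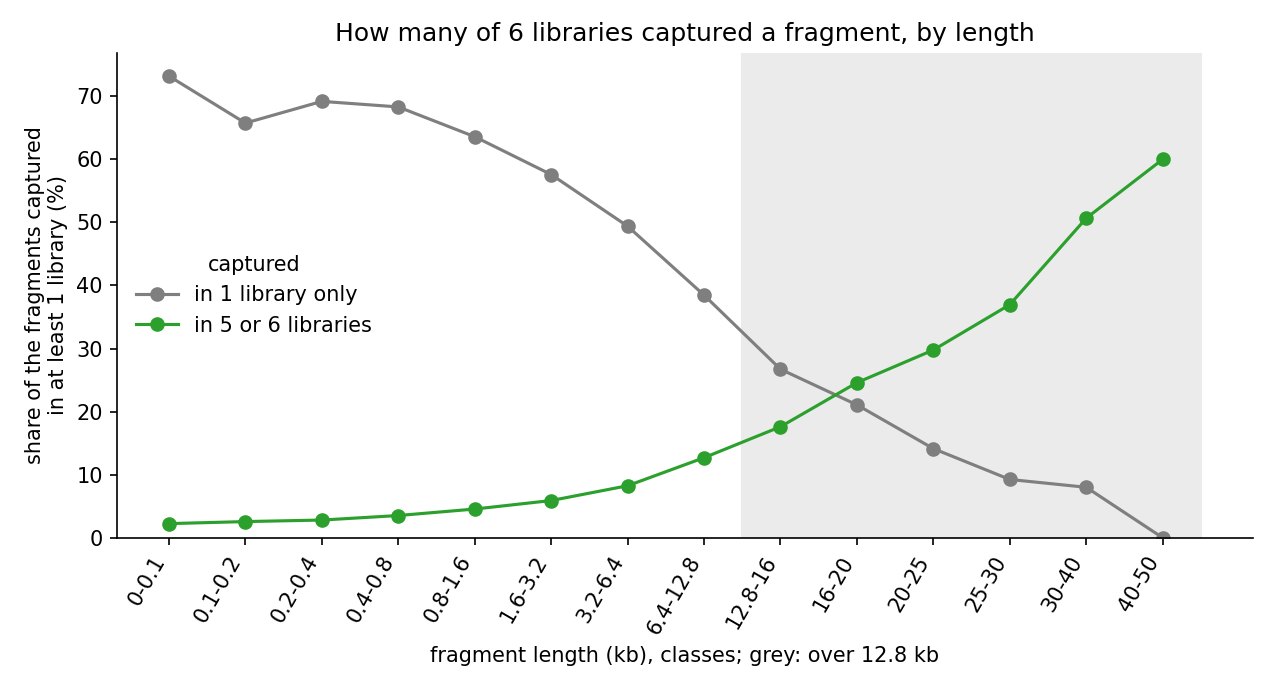
Share (y axis, %) of the fragments captured in at least 1 library that were captured in 1 library only (grey) or in 5 or 6 of the 6 libraries (green), by class of fragment length in kb, with long fragments on a grey ground. The lines cross between 12.8 and 20 kb; classes with fewer than 5 captured fragments are left out.

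Pairs of libraries showed the same. The phi coefficient of 2 libraries' captured states over the long fragments was 0.518 on average over the 15 pairs (0.451 to 0.597), against 0.360 for fragments of 6 to 12.8 kb and 0.278 for all other fragments. These coefficients describe libraries that share the fragment list and the genome build. Over long fragments it was 0.512 for the 6 pairs within a strain, 0.531 for the 3 pairs that share a replicate number and 0.518 for the 6 pairs with neither in common, so pairs of a strain were not set apart.

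Long fragments lay where the z-score was raised. Its mean over long fragments was 0.65, 0.63 and 0.52 in SS 1, SS 2 and SS 3 and 0.69, 0.73 and 0.44 in the SS13BN libraries, with SS 3 and SS13BN 3 lowest. Over the others it lay between -0.06 and -0.03. The difference was 0.65 ± 0.11 (SD, n = 6), above 0 in 6 of 6 libraries (exact permutation p = 0.03125, adjusted 0.0469; p = 0.25 with the replicate block), and it was 0.72 without SS 3 and SS13BN 3. Against fragments of 6 to 12.8 kb it was 0.22 ± 0.05. A z-score above 3 was found at 13.2% to 24.5% of long fragments and at 8.42% to 16.6% of others. Each long fragment counts in its own window, but with its own state left out the difference was 0.651. The fragments directly next to long ones were also longer, with a median of 2.53 kb against 2.19 kb next to others. Since the captured share differed with length, this may bear on the z-score, which was not tested.

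The rise was broad. For the 21632 long fragments with enough neighbours on both sides, the mean z-score was 0.53 at the fragment itself, 0.47 and 0.43 at 250 fragments before and after it, 0.35 and 0.27 at 500 and 0.16 and 0.11 at 1000. At 2000 fragments it was -0.03 before and 0.09 after. Around the other fragments the mean was -0.08 and 0.01 at these distances and -0.06 at the fragment itself. Windows more than 500 fragments apart share no fragment, so the values at 1000 are from other fragments than that at 0. Around the 1366 long fragments captured in 5 or 6 libraries the mean was 2.10, and around the 15148 captured in none it was 0.19. These 2 sets were picked by captured states that count in their own windows, so part of this gap is built in. In a given library, and with the fragment's own state left out, the z-score was 1.67 ± 0.24 (SD, n = 6) at captured long fragments and 0.42 ± 0.08 at those not captured.

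**Figure D4:**
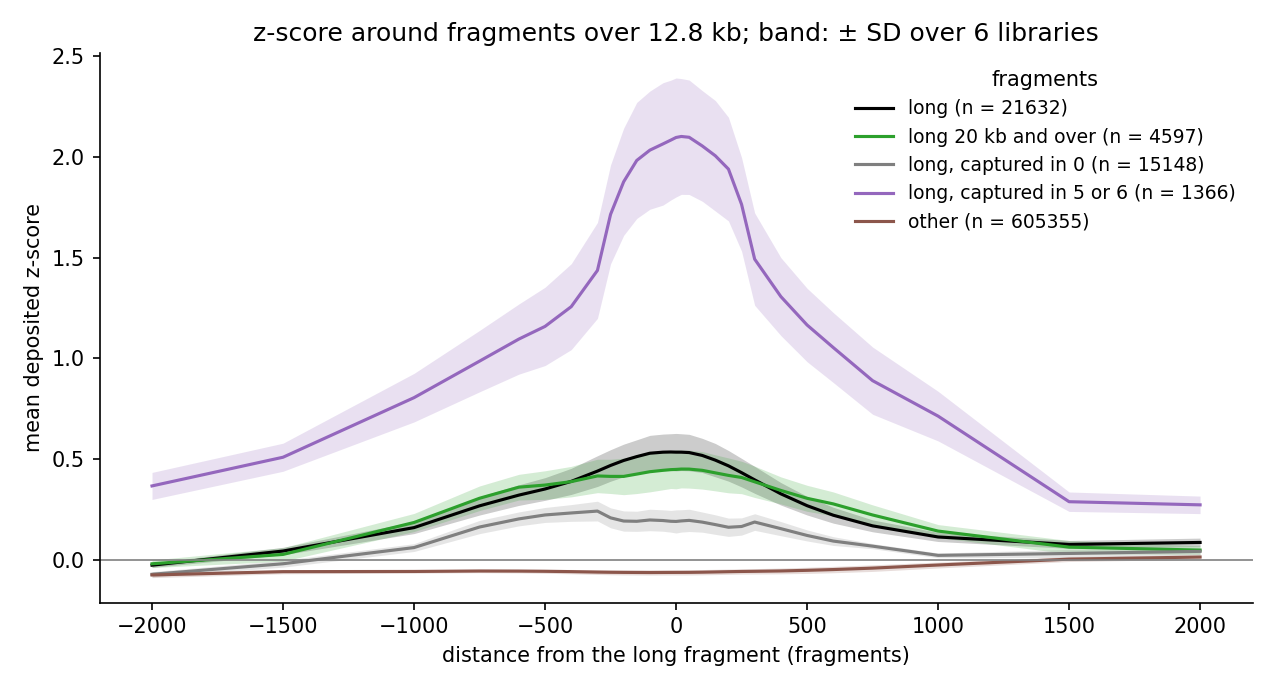
Mean deposited z-score (y axis) at increasing distance, in fragments, from long fragments, from those of 20 kb and over, from those captured in 0 or in 5 or 6 libraries, and from other fragments. Lines are means and bands the SD over 6 libraries. The mean at distance 0 is 2.10 for long fragments captured in 5 or 6 libraries and 0.53 for the 21632 long fragments plotted. The sets captured in 0 and in 5 or 6 libraries were picked by states that count in their own windows, so part of their gap is built in.

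Even in windows with the most capture, about as many long fragments were never captured as were. With long fragments sorted by their mean z-score over the libraries, the captured share rose from 3.28% below -3 to 29.8% above 6. In the top range 52.9% were captured in no library and 17.0% in 5 or 6, against 36.1% and 8.81% of fragments of 3.2 to 6.4 kb in the same range. Fragments of 6 to 12.8 kb, which are closer in length, were not sorted in this way. Since the z-score is built from the captured states, these shares are a description.

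A stretch of chromosome 20 held both extremes. The fragment captured in 6 libraries with the highest mean z-score was chr20:31888076-31912270 (24.2 kb). Its window held 190, 140 and 101 captured fragments of 501 in SS 1, SS 2 and SS 3, and 160, 225 and 73 in SS13BN 1, SS13BN 2 and SS13BN 3. The 3 long fragments with the highest mean z-score that no library captured lay nearby, at chr20:32044094-32061096, chr20:32094401-32108498 and chr20:32120781-32140768. Their windows held about as many captured fragments, for the first of them 191, 141, 107, 163, 225 and 78 in the same order. Windows so close together can share many of their fragments, so these counts need not be separate from those above. The next 4 fragments captured in 6 libraries by mean z-score were on chromosome 1, at chr1:225538354-225554756, chr1:225384530-225398207, chr1:223754287-223773861 and chr1:223924888-223955659.

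At the other end, 12 long fragments tied at the lowest mean z-score, and all lay together on chromosome 1. The first 5 in table order were chr1:187555812-187574288, chr1:187574836-187598418, chr1:187599841-187623716, chr1:187624798-187647927 and chr1:187715714-187729149. The windows of all 12 held 0 captured fragments of 501 in each of the 6 libraries. They belonged to chr1:187415567-188330575, a stretch of 1773 successive fragments in 0.915 Mb that no library captured. It held 16 long fragments, and the median fragment length in it was 92 bp. The next longest such stretch had 455 fragments and no long one.

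Blocks of 501 fragments with at least 20 long ones, of which there were 486, showed how widely capture of long fragments varied. In chr8:46678360-48877776 the 36 long fragments were captured at 41.2% ± 6.90 (SD, n = 6), the highest of these blocks, and the others at 23.1% ± 8.19. There 11 of the 36 were captured in 5 or 6 libraries and 15 in none. In 6 of these blocks, with 20 to 31 long fragments, no library captured a long one. That with most of them was chr14:93722726-95702336, where the others were captured at 4.75% ± 1.01 (SD, n = 6). In the block with most long fragments, chr12:49024413-52341895, the order was turned. Its 78 long fragments were captured at 9.83% ± 4.27 (SD, n = 6) and the others at 19.7% ± 4.96, long ones were lower in 6 of 6 libraries, and 63 of the 78 were captured in none. These blocks were chosen by their values, so no test was made on them.

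By chromosome, the relative capture was above 1 on average on 18 of 19 chromosomes and in all 6 libraries on 16. It was highest on chromosome 8, at 1.45 ± 0.13 (SD, n = 6). On chromosome 12 it was below 1 in 6 of 6 libraries, at 0.851 ± 0.081 (SD, n = 6) and between 0.781 and 0.976. SS 1 on chromosome 5 (0.978) and SS13BN 2 on chromosome 19 (0.912) were the other values below 1. Without its densest block, chromosome 12 was at 0.876 ± 0.070 (SD, n = 6). At 12.8 to 16 kb the ratio on chromosome 12 was 1.11 ± 0.062 (SD, n = 6), against 1.40 ± 0.094 on the other chromosomes, and at 20 kb and over it was 0.561 ± 0.15 against 0.948 ± 0.11. Chromosome 12 was singled out after its values were seen, and the difference was not tested.

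**Figure D5:**
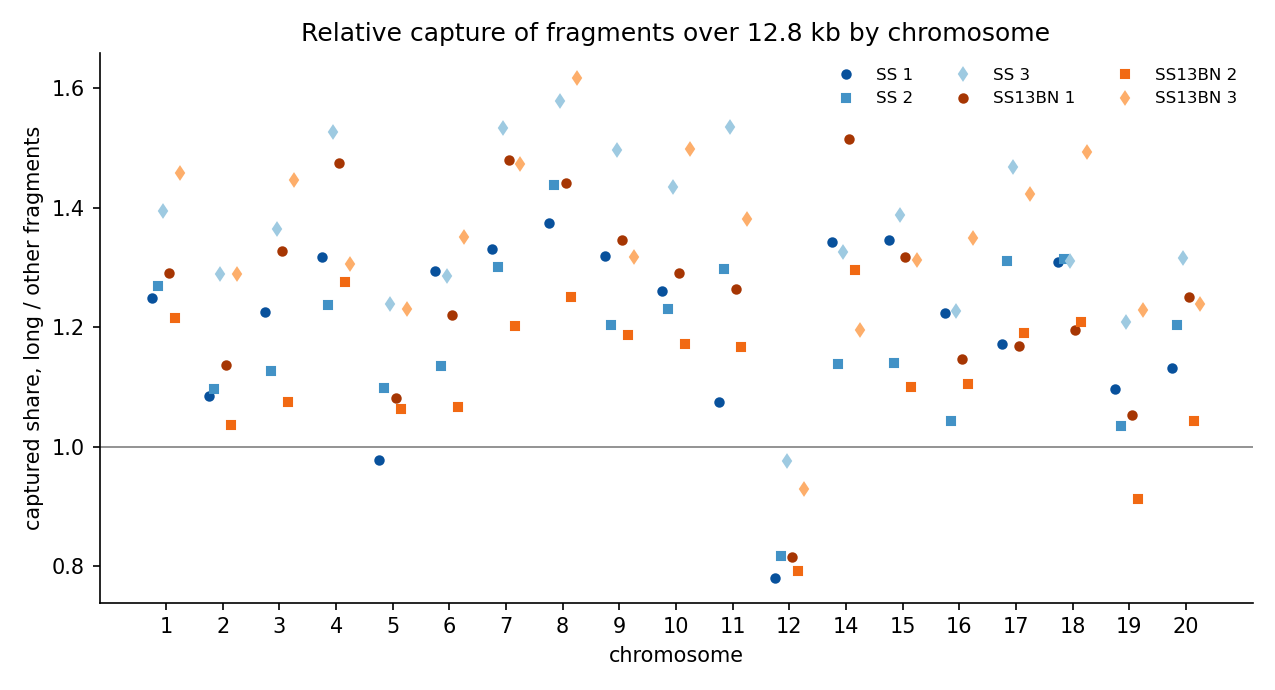
Captured share of long fragments divided by that of other fragments (y axis, a ratio) for each of 19 chromosomes, with 1 point per library. On chromosome 12 the points lie between 0.781 and 0.976, below the line at 1 in the 6 libraries.

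Near chromosome ends long fragments scored low. Within 1 Mb of an end, 420 long fragments had a mean z-score of -2.75, and they were captured at 7.14% against 10.0% of the others. The windows there are cut short by the end while the number of captures they are compared with is that of a full window, so z-scores at the ends are low by construction. The captured shares are free of this. From 1 to 3 Mb on, the ratio of shares was between 1.23 and 1.28 in each range of distance.

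Relative capture was compared between the strains, since this asks whether the origin of chromosome 13 alters how long fragments elsewhere are captured. It was 1.27 ± 0.099 (SD, n = 3) in SS and 1.27 ± 0.116 in SS13BN. The SS13BN libraries lay both above and below those of SS, and the difference of mean log2 ratios, SS13BN minus SS, was -0.01 (SE 0.10, exact two-sided permutation p = 0.9; 3 against 3 libraries cannot go below 0.1). The difference in the mean z-score excess of long fragments was 0.02 (SE 0.10, exact permutation p = 0.8), and both were 0.9 after adjustment. No difference was detectable with 3 libraries each, and differences of the size of these errors could not have been seen.

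A few long fragments were captured in all libraries of a strain and in none of the other. They numbered 41 for SS (0.162%, 95% Wilson interval 0.119% to 0.220%) and 55 for SS13BN (0.217%, 0.167% to 0.283%). Over all 712487 fragments the shares were 0.0939% and 0.114%. Among fragments of 6 to 12.8 kb, which were captured more often than the average fragment, they were 0.171% and 0.221%, close to those of long fragments. A state in 3 against 3 libraries cannot pass a test for a given fragment. Without SS 3 and SS13BN 3, where 2 libraries against 2 are needed, the shares of long fragments were 0.608% and 1.8%. The shares over all fragments were not worked out for that rule, so these values are no result about long fragments. An SS-only call needs the fragment to be missing from SS13BN 2, the library with the most captures.

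The longest of these fragments lay in windows of every kind. For SS they were chr11:23746396-23769901 (23.5 kb), chr9:41559352-41580484 (21.1 kb), chr14:32730584-32750082 (19.5 kb), chr3:127957988-127976871 (18.9 kb) and chr1:66346057-66364014 (18.0 kb). The z-score was below 0 in the 6 libraries at those on chromosomes 11, 14 and 1 and above 0 in the 6 at those on chromosomes 9 and 3. For SS13BN they were chr5:171556085-171582155 (26.1 kb), chr2:194690909-194716274 (25.4 kb), chr2:267588329-267611387 (23.1 kb), chr1:126911949-126932472 (20.5 kb) and chr5:29306877-29327370 (20.5 kb). At chr5:171556085-171582155 the window held 106, 93 and 86 captured fragments in SS 1, SS 2 and SS 3 and 88, 159 and 73 in the SS13BN libraries. The strains overlapped there, so its surroundings did not follow its own state.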

How the data were processed

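The submitters' processing notes name the build rn5 and CASAVA 1.8. For the aligner, the filters on reads and the scoring program, nothing is stated in the sources used here. The authors deposited 1 table per library with a score, a z-score, for each EcoRI fragment. Coordinates are those of the tables, whose closed intervals start at 0.

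The scores matched (k - Wp)/sqrt(Wp(1 - p)), with k captured fragments among W = 501 and p the chromosome's captured share, also at chromosome ends, where k is cut short. Solving for k gave the states, and these rebuilt 100% of windows. The solver was tested on simulated data. Shares were compared within libraries by exact two-sided sign-flip tests and between strains by exact permutation, at a threshold of 0.05 with Benjamini-Hochberg adjustment.

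Named fragments were the 5 longest, the 5 captured in most libraries (ties by mean z-score), the 5 lowest (ties in table order) and 3 highest in z-score among those never captured, the 3 nearest the bound on each side, the longest run, the widest gap, and up to 5 per strain captured there only, by length. The members, rules and tests were chosen with earlier results of these data known.

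Libraries with the same replicate number deviated together from their strain's means over 1413 blocks (r = 0.230, 0.157 and 0.200 for numbers 1, 2 and 3), so the numbers were taken to pair the libraries. Alternatives were other length bounds, comparison sets, neighbourhoods, chromosome ends left out, left-out libraries and the replicate block. Scripts ran in Python 3.11.15 with pandas 2.3.3, numpy 2.4.6 and scipy 1.17.1, and matplotlib 3.10.9 drew the plots.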

Additional observations from a re-analysis of the deposited data

Results flagged for a closer look

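Long fragments on chromosome X were left out of the comparisons above, and they too were captured. Of 1453, 7.01% ± 1.96 (SD, n = 6) were captured, between 5.51% (SS 2) and 10.7% (SS13BN 2). There was no control without a viewpoint, so these shares were not set against a background. The relative capture on chromosome X was 0.680, 0.720 and 0.875 in SS 1, SS 2 and SS 3 and 0.839, 0.804 and 0.861 in SS13BN 1, SS13BN 2 and SS13BN 3, below 1 in 6 of 6 libraries.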

How the results depend on the processing

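Log2 relative capture of long fragments was 0.172 with a bound of 16 kb, -0.125 with a bound of 20 kb and -0.241 against fragments of 6 kb to the bound. The local value was 0.0401 at 16 kb, where the call was lost, and -0.244 at 20 kb, where it turned over. The strain difference in relative capture turned to 0.0291 at 16 kb, 0.0052 at 20 kb and 0.00424 against 6 kb to the bound. The share captured in SS libraries only was 0.0874% at 16 kb and 0.0362% at 20 kb, against 0.0939% over all fragments. That in SS13BN libraries only was 0.27% at 16 kb and 0.109% at 20 kb, against 0.114% over all fragments. At 20 kb both shares were thus below those over all fragments, and at 16 kb that of SS was. Without both libraries with chromosome 13 at 0, relative capture was 0.276, the local value 0.136, the z-score difference 0.72 and the trend with length -0.58. The difference in captures found in no other library was then -24.3 points. It was counted among the libraries kept, so a capture had fewer others to be shared with, and the measure is not that of the main value. The SS-only and SS13BN-only shares were then 0.608% and 1.8%, and no shares over all fragments were worked out for that rule.

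With 1 library left out in turn, relative capture was 0.312 to 0.367, the local value 0.177 to 0.232, the z-score difference 0.628 to 0.69, the length trend -0.572 to -0.518 and the difference in captures found in no other library -23.6 to -22.4. With 5 libraries no p under 0.0625 can be had, so these kept their direction but could not pass. Captures found in no other library were counted among the libraries kept. That difference is therefore another measure than with all libraries, where it was -21.1 points, outside this range. The strain differences ranged from -0.0662 to 0.0661 in relative capture and from -0.0397 to 0.114 in z-score. The SS-only and SS13BN-only shares ranged from 0.245% to 0.762% and from 0.336% to 0.92%, where fewer libraries have to fit the rule. For these rules too, no shares over all fragments were worked out.

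With the paired analysis (replicate block) the strain differences were -0.00518 and 0.0203, both at exact permutation p = 0.75, and neither call changed. With libraries of a number averaged to 1 set, relative capture was 0.338 (-0.241 against 6 kb to the bound), the local value 0.205, the z-score difference 0.654, the length trend -0.551 and the difference in captures found in no other library -21.1 points, each at the smallest exact permutation p of 3 sets, 0.25, so these 5 calls were lost. The number of captured fragments limits all shares. Sequencing depth is unknown.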

Other observations

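Of the 12 rows of 1 Mb and over, 7 had a length within 10% of their distance from the start of the chromosome. Length divided by start ranged from 0.932 to 2.01 over the 12. For chr4:67977592-133127611 it was 0.958. The rows were the same in all 6 tables, so this is a property of the fragment list, and its source was not tested.

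Stretches of 100 or more successive fragments that no library captured numbered 70 and held 14134 fragments. Of these 1.85% were long, against 3.55% of all fragments.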
